A study of Drosophila melanogaster with 2 samples.

Results

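Many fly genes are known only by a CG number, the running identifier that the genome project gave to a computed gene. Here the genes whose array symbol was still such a number were taken where their transcript differed at least 4-fold between Ck1alphaRNAi and control larvae. The rule asked for a symbol made of CG and digits, a MAS5 signal (the brightness of a probe set on a linear scale) of at least 200 on the brighter of the 2 arrays, and a signal quotient, Ck1alphaRNAi over control, of at least 4 in either direction. Where several probe sets carried the symbol, the one with the highest mean signal stood for the gene, and 16 genes with CG numbers were left out by name. This left 82 genes of 11994 measured, 32 of them higher and 50 lower in Ck1alphaRNAi larvae. Because they were selected on this quotient and these signals, their size of change is a description and carries no test.

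The Ck1alphaRNAi larvae carried Dcg-Gal4 and UAS-Ck1alphaRNAi, so that a hairpin against Ck1alpha, a protein kinase that restrains several signalling pathways, was made where the driver Dcg-Gal4 is active, known to be the fat body and blood cells. Control larvae came from Dcg-Gal4 crossed to w1118 and carried the same driver without the hairpin. Both groups were whole, feeding, mid-third instar larvae labelled as female, and each group was 1 pool of 20 larvae on 1 Affymetrix Drosophila 2 array. According to the methods, Ck1alphaRNAi cultures were begun 1 day ahead of the controls, so the age of the culture and the knockdown cannot be told apart in these arrays.

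The larval fat body combines the roles that liver and fat tissue have in mammals. It stores lipid and glycogen, loads the hemolymph with serum proteins, protease inhibitors and antimicrobial peptides, and sends hormones that set growth by nutrition. The gut secretes digestive hydrolases, and the salivary glands fill with glue protein at the end of larval life. CG numbers hide members of all these systems, since a number says only that no name had been given when the array was annotated. The gene titles on this array gave nothing but the transcript for all 82 genes, so their functions were read from the gene ontology columns of the deposited table. The current reference has since given a name to 20 of them, 10 among the higher and 10 among the lower genes.

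Of 3174 CG genes that reached a signal of 200, 1.01% were at least 4-fold higher in Ck1alphaRNAi larvae and 1.58% at least 4-fold lower, 2.58% in either direction. Over all 6920 genes with that signal the shares were 1.16% higher, 1.23% lower and 2.38% either way, and over the 3732 genes with another symbol 1.05%, 0.938% and 1.98%. The CG genes left out by name are in the count over all genes but not in that over CG genes, and of the 14 measured alone 9 were at least 4-fold higher and 0 lower. With them put back, the 4-fold limit was passed upward by 41 of 3188 CG genes (1.29%) and downward by 50 (1.57%). The differences between these shares were not tested. The median log2 ratio was 0.00 over the CG genes with that signal and 0.00 over all genes.

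The 32 higher genes had median signals of 964 (Ck1alphaRNAi) and 108 (control), with a median quotient of 6.04. Their signals ran between 208 and 10535 in Ck1alphaRNAi larvae and between 6.11 and 2605 in control larvae. The 50 lower genes had median signals of 129 (Ck1alphaRNAi) and 783 (control), a median 6.97-fold lower. They ranged from 2.20 to 1261 in Ck1alphaRNAi larvae and from 211 to 13047 in control larvae. In 14 genes, 4 higher and 10 lower, the dimmer signal lay below the brightest of 17 tag control probe sets, which match no fly transcript and reached 53.3 for Ck1alphaRNAi and 33.1 for control larvae. For these only a lower limit of the change, set by that level, is printed (at least so many fold). With the bounds in place the median stayed at 6.04-fold for the higher genes and was 6.10-fold for the lower genes. Signals of different probe sets do not rank transcripts by abundance. There is no replicate. The only measure of technical error was the spread between different probe sets of a gene. Its standard deviation was 0.29 on the log2 scale over 359 genes, or 1.22-fold. Probe sets dimmer than 100 on either array did not enter this spread. It therefore does not describe the error of the 37 of the 82 genes that were so dim on an array.

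**Figure D1:**
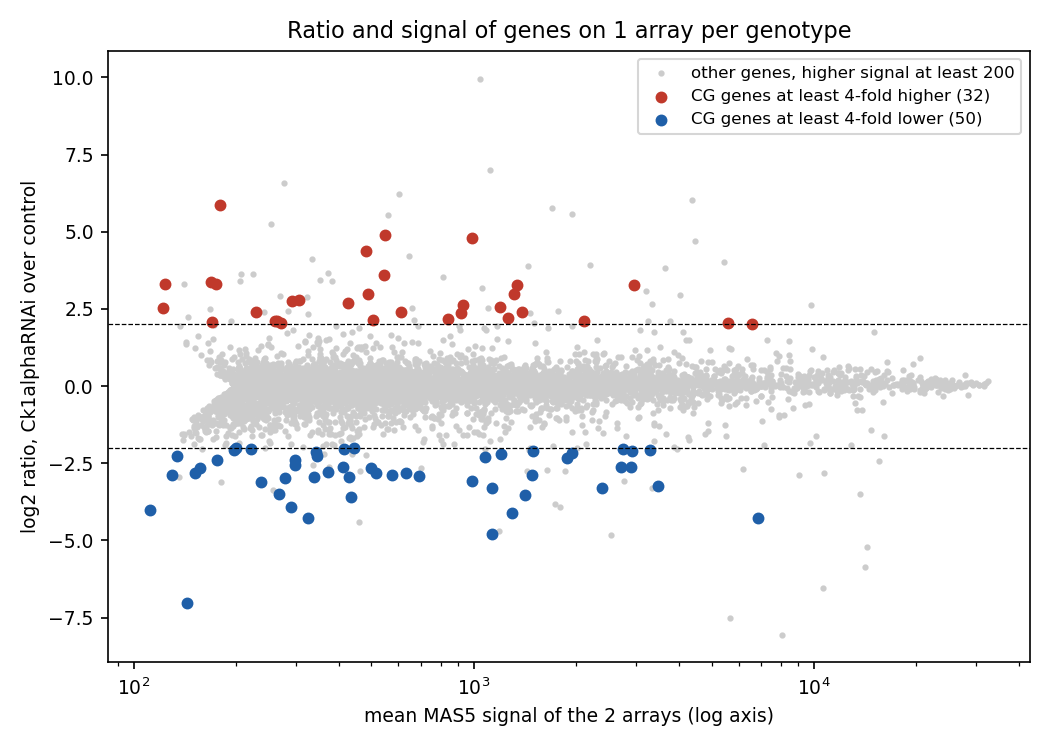
Log2 ratio of Ck1alphaRNAi over control (vertical axis) against the mean MAS5 signal of the 2 arrays (horizontal log axis) for genes that reached a signal of 200. The 32 CG genes at least 4-fold higher and the 50 at least 4-fold lower are coloured, other genes are grey, the dashed lines mark 4-fold, and the coloured genes spread over the range of signal, with mean signals both below 200 and above 1000.

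Ck1alpha itself gave 2055 in Ck1alphaRNAi larvae and 2665 in control larvae (quotient 0.771). All 6 fat body markers, the larval serum and fat body proteins, were at least 4-fold lower, their signals summing to 3667 in Ck1alphaRNAi larvae against 110404 in controls. Of 6 salivary glue markers 4 were at least 4-fold lower, with sums of 23221 in Ck1alphaRNAi and 108793 in control larvae. Blood cell lists held single genes that were at least 4-fold higher. Among 4 plasmatocyte markers NimC1 had 477 in Ck1alphaRNAi and 62.6 in control larvae. Hml and eater had quotients of 1.16 and 1.29, and Pxn was lower at 0.608. The sums of these 4 were 2886 in Ck1alphaRNAi and 2588 in control larvae. Among 2 lamellocyte markers PPO3 had 297 in Ck1alphaRNAi larvae against 10.1 in controls, and the sums were 6479 and 3607. The 3 crystal cell, 4 midgut, 3 neuron, 3 muscle and 2 epidermis markers had no 4-fold difference in either direction. The 9 testis markers, although the larvae are labelled as female, summed to 3151 in Ck1alphaRNAi and 5168 in control larvae. In whole larvae fewer cells of a type and less RNA per cell cannot be told apart, and the part of these lists in the changes of the CG genes was not tested.

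Sorted by annotated process or molecular function, the 82 genes held 15 of the 174 proteolysis genes among CG genes with that signal (8.62%), 8 higher and 7 lower. The list of immunity genes and protease inhibitors gave 4 of 36 (11.1%), all lower, and lipid metabolism 7 of 164 (4.27%), 6 higher and 1 lower. Oxidoreductases gave 5 of 141 (3.55%), all lower. Over genes of any symbol with that signal, the immunity and inhibitor list of 194 had 11 at least 4-fold higher and 6 lower, the 413 genes of lipid metabolism 9 and 7, and the 318 oxidoreductases 3 and 9. The median log2 ratio over these lists was 0.00, 0.04 and 0.00. The counts over CG genes lack the genes left out by name, which those over genes of any symbol include. Of the 14 left-out genes measured alone, 9 were at least 4-fold higher and 0 lower, which bears on the directions given for CG genes. The list of transporters gave 2 of 195 (1.03%), nucleic acid binding 3 of 277 (1.08%), carbohydrate enzymes 1 of 39 (2.56%) and chitin or cuticle 0 of 39. A further 14 of 1025 genes (1.37%) had some other annotation. No process or function was given for 31 of 1084 (2.86%), 9 higher and 22 lower. These shares are to be read beside the 2.58% of all CG genes, and no test of any list was made. The lists go by key words in a fixed order, so that a G protein (CG17760) stands under lipid metabolism for its phospholipase C term and a cytokine (Gbp3) under nucleic acid binding. The Bomanins BomT3 and BomBc3, both higher, stand under the genes with no function given.

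**Figure D2:**
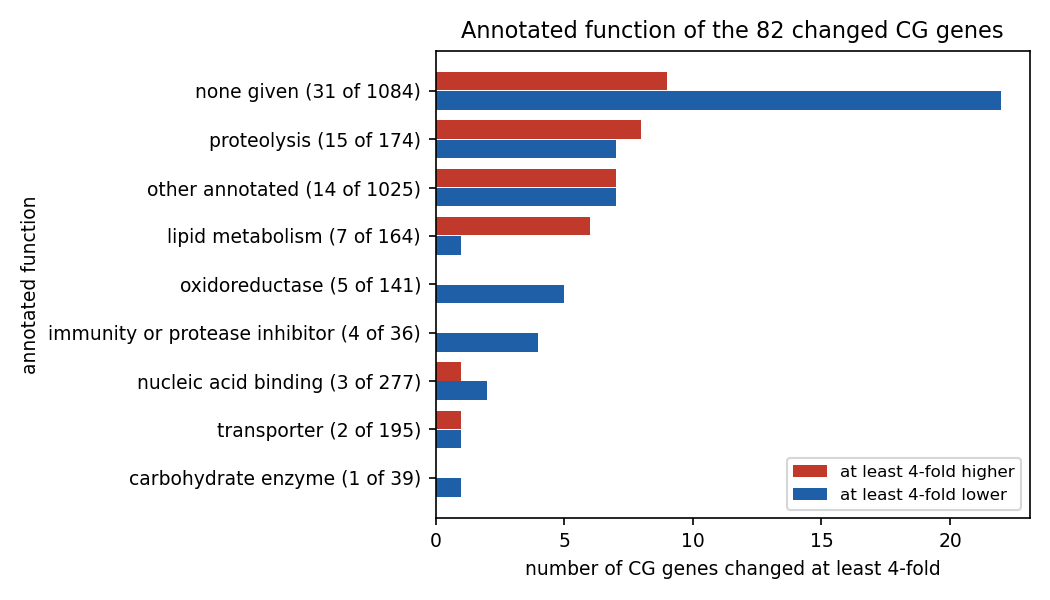
Number of CG genes at least 4-fold higher (red) and at least 4-fold lower (blue) in Ck1alphaRNAi larvae, horizontal axis, by annotated function, vertical axis, with the number changed of the number of CG genes with a signal of at least 200 in brackets. Proteolysis splits into 8 higher and 7 lower, lipid metabolism into 6 and 1, and the 5 oxidoreductases and 4 immunity or inhibitor genes are all lower. These are counts of genes selected for their change, not directions of whole groups.

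Proteases were the largest named group. Serine peptidases, which include digestive trypsins and the clip-domain enzymes that relay immune and clotting signals in the hemolymph, gave 6 higher and 3 lower of 73 CG genes. Metallopeptidases gave 1 higher and 4 lower of 53, cysteine peptidases 1 higher of 13, and the remaining 35 none. CG10764, a serine peptidase annotated as a brake on blood cell proliferation, had 918 in Ck1alphaRNAi larvae and 44.5 in control larvae (20.7-fold higher). CG9733, a serine peptidase with a defense response annotation, had 353 in Ck1alphaRNAi and 6.11 in control larvae, at least 10.7-fold higher. CG18754 had 316 in Ck1alphaRNAi larvae against 32.2 in controls, at least 9.56-fold higher, and CG31219 had 224 in Ck1alphaRNAi and 22.7 in control larvae, at least 6.77-fold higher. The control signal of all these except CG10764 thus lay below the tag controls. CG33225 had the highest signal of the 9 serine peptidases, 2327 in Ck1alphaRNAi larvae and 441 in control larvae (5.27-fold). The last of the higher ones, CG18557, gave 275 in Ck1alphaRNAi larvae against 65.7 in controls (4.19-fold).

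On the lower side, the serine peptidase CG18563 had 157 in Ck1alphaRNAi larvae and 1111 in control larvae, 7.09-fold lower. CG30288 had 49.6 in Ck1alphaRNAi and 422 in control larvae, at least 7.92-fold lower, and CG1773 had 31.3 in Ck1alphaRNAi larvae against 228 in controls, at least 4.28-fold lower. The 6 CG serine peptidases with a signal of at least 10000 were in neither list, with quotients of 1.01 to 1.35. Over all 128 genes with a serine-type endopeptidase annotation, whatever their symbol, 87 had a quotient above 1, and 9 were at least 4-fold higher and 3 lower. The 3 lower ones were the CG genes just given.

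Among the metallopeptidases the single higher gene was CG7631, at 2081 in Ck1alphaRNAi larvae and 446 in control larvae (4.67-fold). The lower ones were 3 neprilysins and 1 carboxypeptidase. Neprilysins are metallopeptidases, most of them membrane bound in animals, that cut short peptides such as hormones and neuropeptides. CG3775, now Nep6, had 43.4 in Ck1alphaRNAi larvae and 491 in control larvae, at least 9.20-fold lower. CG8550, now Nepl10, had 42.9 in Ck1alphaRNAi and 269 in control larvae (at least 5.05-fold lower), and CG4725, now Nepl13, 46.5 in Ck1alphaRNAi larvae against 222 in controls (at least 4.17-fold lower). The carboxypeptidase CG4408 gave 95.4 in Ck1alphaRNAi and 499 in control larvae, 5.23-fold lower. Of 15 Nep and Nepl genes with a signal of at least 200, the 3 selected ones included, 11 had a quotient below 1. The median log2 ratio was -1.12, but several of the 15 reached that signal only in control larvae, which favours low quotients. Those with that signal on both arrays lay on both sides of 1, from 1.54 (Nepl21) to 0.461 (Nep2). None of the 15 was at least 4-fold higher. Nepl9 (CG13283) came nearest to that, at 275 in Ck1alphaRNAi larvae against 69.2 in controls (3.97-fold). Over all 47 genes with a metalloendopeptidase annotation and that signal, 25 had a quotient above 1 and 22 below, 2 were at least 4-fold higher and 3 lower, and the median log2 ratio was 0.03. The cysteine peptidase CG6357 had 823 in Ck1alphaRNAi larvae and 186 in control larvae, 4.42-fold higher.

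Peptidase inhibitors keep such enzymes in check in the hemolymph and tissues. Of 17 CG genes annotated as inhibitors 3 were at least 4-fold lower and none higher. CG16704, a serine peptidase inhibitor, had the highest signal of all 82 genes, with 671 in Ck1alphaRNAi larvae and 13047 in control larvae, 19.4-fold lower. CG31778, also a serine peptidase inhibitor, had 224 in Ck1alphaRNAi and 2598 in control larvae (11.6-fold lower). CG15369, a cysteine peptidase inhibitor, had 32.0 in Ck1alphaRNAi larvae against 618 in controls, at least 11.6-fold lower. Other inhibitors did not share this: over all 30 genes with the serine inhibitor term these 2 were the only ones at least 4-fold lower and the median log2 ratio was -0.03, and of 8 cysteine inhibitors 4 had a quotient above 1. CG2736, a scavenger receptor of the cell surface annotated to defense, had 352 in Ck1alphaRNAi larvae and 2613 in control larvae, 7.42-fold lower. The other 12 scavenger receptor genes with that signal showed no 4-fold difference.

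Of the 7 genes listed under lipid metabolism 6 were higher, CG17760 among them. CG4757, annotated as a carboxylic ester hydrolase, had 1909 in Ck1alphaRNAi larvae and 68.2 in control larvae, 28.0-fold higher. Of 29 genes with this term no other was 4-fold higher, and only alpha-Est2, at 374 in Ck1alphaRNAi and 2490 in control larvae, was as much lower. Sphingolipids are membrane lipids that enzymes break down to ceramide and further. CG31148, now Gba1a, a glucosylceramidase of the lysosome, had 1009 in Ck1alphaRNAi larvae against 82.9 in controls (12.2-fold higher). Its paralog Gba1b did not reach a signal of 200, at 45.9 in Ck1alphaRNAi larvae and 131 in control larvae. Adjacent genes for a pair of sphingomyelin phosphodiesterases, enzymes that release ceramide from sphingomyelin, were both higher: CG15533 at 1538 in Ck1alphaRNAi and 295 in control larvae (5.22-fold) and CG15534 at 3423 in Ck1alphaRNAi larvae against 801 in controls (4.27-fold). The other 2 measured genes with this activity and a signal of at least 200 did not share it, nSMase at 605 in Ck1alphaRNAi and 620 in control larvae and CG3376 at 305 in Ck1alphaRNAi larvae against 400 in controls.

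Acyl-CoA binding proteins carry activated fatty acids in the cytosol. CG15829, now Acbp6, had the highest signal of all the higher genes, 10535 in Ck1alphaRNAi larvae and 2605 in control larvae (4.04-fold). All 6 Acbp genes, this selected one included, had a quotient above 1, the next being Acbp2 at 11249 in Ck1alphaRNAi and 5588 in control larvae, 2.01-fold higher. Acbp3 had a quotient of 1.61 and Acbp5 of 1.43, and Acbp4 and Acbp1 were nearly unchanged at 1.06 each. In the other direction, CG3961, a long-chain fatty acid-CoA ligase, which activates fatty acids with coenzyme A, had 1112 in Ck1alphaRNAi larvae and 4741 in control larvae, 4.26-fold lower. Of the 6 such ligases with a signal of at least 200, 5 had a quotient below 1, the selected CG3961 included. The second lowest was pdgy, at 2072 in Ck1alphaRNAi larvae against 4704 in controls. The others below 1 were close to it, with quotients of 0.976 (bgm), 0.941 (Acsl) and 0.856 (CG6178), and Acsf2 was above it at 1.77.

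The 5 oxidoreductases were all lower, and 2 of them carry activities of carnitine synthesis, which supplies the carrier that brings long fatty acids into mitochondria. CG4335, now Tmlh, annotated to trimethyllysine hydroxylation at the start of that pathway, had 136 in Ck1alphaRNAi larvae and 863 in control larvae, 6.35-fold lower. CG5321, annotated as a gamma-butyrobetaine dioxygenase, the last step, had 13.1 in Ck1alphaRNAi and 211 in control larvae, at least 3.95-fold lower, and was the only gene whose bound fell short of 4. CG14630, which carries the same dioxygenase term, was not lower, at 1389 in Ck1alphaRNAi larvae against 1084 in controls. CG6910, now Miox, the inositol oxygenase that opens the inositol ring, had 129 in Ck1alphaRNAi and 903 in control larvae (7.02-fold lower). CG10962, an NAD- or NADP-dependent oxidoreductase, had 141 in Ck1alphaRNAi larvae and 2451 in control larvae, 17.4-fold lower. CG5493, cysteine dioxygenase, which starts the oxidative breakdown of cysteine, had 75.9 in Ck1alphaRNAi larvae against 318 in controls (4.19-fold lower).

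Other enzymes of nitrogen and sulfur metabolism were found on both sides. CG8745, a mitochondrial transaminase annotated to arginine breakdown, had 1082 in Ck1alphaRNAi larvae and 4393 in control larvae, 4.06-fold lower. CG6415, the aminomethyltransferase of the glycine cleavage complex, had 128 in Ck1alphaRNAi and 557 in control larvae (4.34-fold lower). CG4306, a gamma-glutamylcyclotransferase annotated to glutathione and hemolymph clotting, had 210 in Ck1alphaRNAi larvae against 1762 in controls (8.38-fold lower). CG4829, a gamma-glutamyltransferase of glutathione metabolism, went the other way with 1373 in Ck1alphaRNAi larvae and 307 in control larvae, 4.48-fold higher. CG32751, annotated as a pantetheine hydrolase, was among the higher genes with the highest signals, at 5364 in Ck1alphaRNAi and 552 in control larvae, 9.71-fold higher.

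Alkaline phosphatases, enzymes of gut and renal membranes in many animals, were among the changed genes in both directions. CG3292, now Alp7, had 2328 in Ck1alphaRNAi larvae and 292 in control larvae (7.97-fold higher), whereas CG5656, now Alp1, had 428 in Ck1alphaRNAi larvae against 1976 in controls (4.62-fold lower). The other 6 Alp genes with a signal of at least 200 did not pass the 4-fold limit, the nearest to Alp7 being Alp8 at 6197 in Ck1alphaRNAi and 2186 in control larvae, 2.83-fold higher. The acyltransferase CG14219 had 1028 in Ck1alphaRNAi larvae against 194 in controls (5.30-fold higher). CG15661, now Ugt49C1, a glycosyltransferase of the detoxifying UGT family, had 437 in Ck1alphaRNAi and 106 in control larvae (4.13-fold higher). CG13360, annotated as a phosphotransferase, had 444 in Ck1alphaRNAi larvae and 4322 in control larvae, 9.74-fold lower. CG14823, annotated as a lysozyme, had 37.7 in Ck1alphaRNAi larvae against 266 in controls, at least 4.98-fold lower. The only genes annotated as transporters were CG42825 (Srg2) and CG8654, the latter as an organic cation transporter. CG42825, read by a probe set named for CG6640-RA, had 1605 in Ck1alphaRNAi and 259 in control larvae (6.20-fold higher). CG8654 had 804 in Ck1alphaRNAi larvae against 4974 in controls (6.18-fold lower). Of the other 12 organic cation transporter genes with that signal none differed 4-fold.

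**Figure D3:**
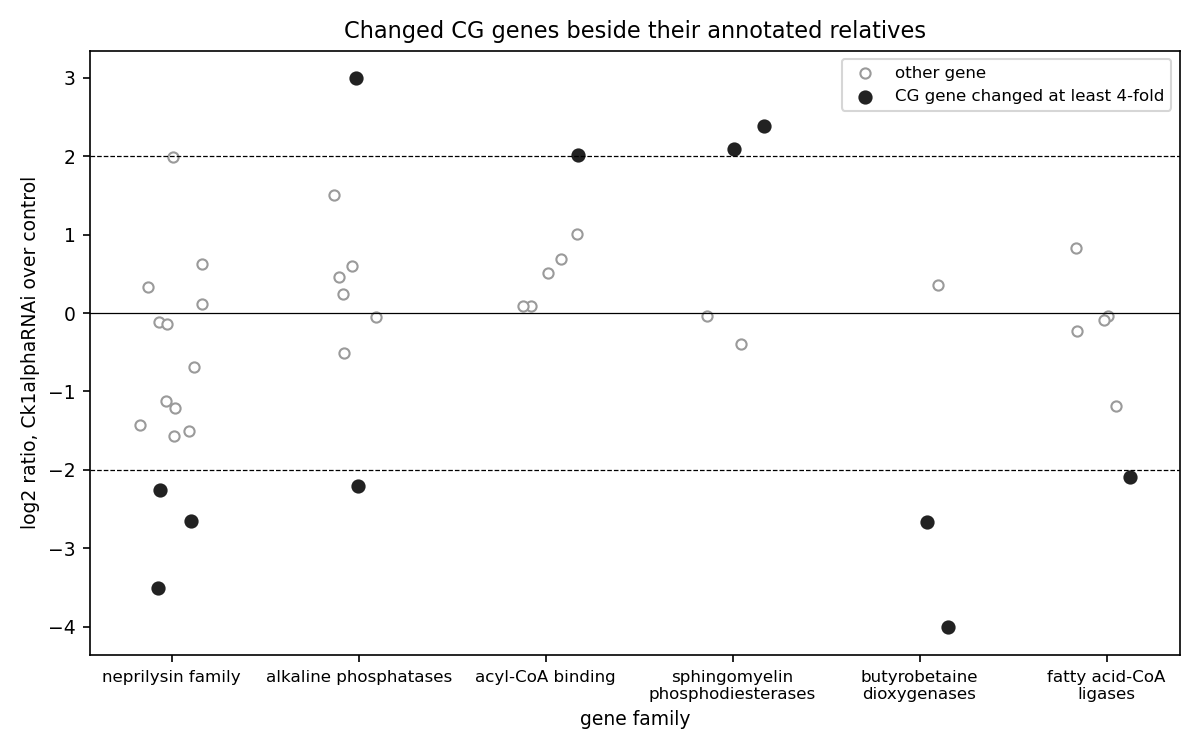
Log2 ratio of Ck1alphaRNAi over control (vertical axis) for genes of 6 families (horizontal axis) that reached a signal of 200; filled points are the CG genes changed at least 4-fold, open points the other genes of the family, and dashed lines mark 4-fold. Ratios are plain quotients, without the limit set by the tag controls. The 3 filled neprilysins lie below -2 and the filled alkaline phosphatases on opposite sides of 0, as filled points were selected for their change. Several open neprilysins reached a signal of 200 only in control larvae. The 6 acyl-CoA binding genes lie above 0, Acbp4 and Acbp1 at a quotient of only 1.06.

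Several of the genes encode signals or proteins of defense and secretion. CG17244, now Gbp3, belongs to the growth-blocking peptides, cytokines that the fat body is known to release in response to nutrition. It had 1261 in Ck1alphaRNAi larvae and 5328 in control larvae (4.23-fold lower), while Gbp, a gene of the same family, had 463 in Ck1alphaRNAi and 249 in control larvae. The third of them, Gbp2 (CG11395), left out by name, stood at 807 in Ck1alphaRNAi larvae against 3224 in controls, 3.99-fold lower. CG5778 and CG5791, now BomT3 and BomBc3, encode Bomanins, short secreted peptides induced through the Toll pathway. BomT3 had 428 in Ck1alphaRNAi and 98.8 in control larvae (4.34-fold higher) and BomBc3 had 307 in Ck1alphaRNAi larvae against 29.6 in controls (at least 9.29-fold higher). CG17760, a G protein alpha subunit, had 739 in Ck1alphaRNAi larvae and 113 in control larvae, 6.52-fold higher.

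CG8100 is annotated to the larval serum protein complex, the storage proteins that the fat body secretes. It had 2.20 in Ck1alphaRNAi larvae and 284 in control larvae, at least 5.32-fold lower, and all 5 genes with this annotation were at least 4-fold lower. CG7587, now Sgs5bis, is a relative of the glue gene Sgs5. It had 99.2 in Ck1alphaRNAi and 760 in control larvae (7.66-fold lower), and Sgs5 itself 5408 in Ck1alphaRNAi larvae against 20269 in controls. CG18628, annotated to the extracellular space, had 208 in Ck1alphaRNAi and 36.2 in control larvae (5.75-fold higher). CG7763, which carries only a carbohydrate binding term, had 78.2 in Ck1alphaRNAi larvae and 600 in control larvae, 7.68-fold lower, and CG34279, with a protein binding term, 63.5 in Ck1alphaRNAi larvae against 494 in controls (7.78-fold lower). Nuclear and nucleic acid genes were few. CG9989, now Sid, a nuclease annotated to apoptotic DNA fragmentation, had 386 in Ck1alphaRNAi and 72.9 in control larvae (5.29-fold higher), and CG6227, now Prp5, a spliceosomal RNA helicase, 163 in Ck1alphaRNAi larvae against 666 in controls (4.08-fold lower). Of 111 CG genes with an extracellular annotation and a signal of at least 200, 7 were among the changed genes, 2 higher and 5 lower. Over all CG genes with that signal it was 82 of 3174, and the difference was not tested.

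The 31 genes with no annotated process or function made up 28.1% of the higher and 44.0% of the lower genes. Their share was 37.8% of all 82 genes, near the 34.2% among CG genes with a signal of at least 200, and was not tested. Their median gene length was 885 bp against 1985 bp for the 51 annotated ones. Over all 82 genes the median was 1556 bp against 2042 bp for 3165 CG genes with a signal of at least 200 and a known length. Unannotated CG genes that did not pass the limit were not set apart, so short length is not shown to go with the change. Of the 31 genes 14 reached 1000 on an array, where the rule asked for 200 on the brighter one. Median signals on the dimmer side were 97.3 in control larvae for the higher genes and 117 in Ck1alphaRNAi larvae for the lower genes. CG14610 stood out among the higher ones with 1062 in Ck1alphaRNAi larvae and 35.8 in control larvae, 29.7-fold higher and the widest of the higher genes measured above the tag controls on both arrays. CG16775 had 2430 in Ck1alphaRNAi and 252 in control larvae (9.66-fold higher) and CG4250 had 2034 in Ck1alphaRNAi larvae against 346 in controls (5.88-fold higher). CG8157 had the highest signal of them, 8991 in Ck1alphaRNAi larvae and 2155 in control larvae, 4.17-fold higher. The dimmer ones were CG14072 with 535 in Ck1alphaRNAi and 77.4 in control larvae (6.92-fold), CG14850 (Jig) with 509 in Ck1alphaRNAi larvae against 74.9 in controls (6.80-fold) and CG17350 with 423 in Ck1alphaRNAi and 97.3 in control larvae (4.34-fold).

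**Figure D4:**
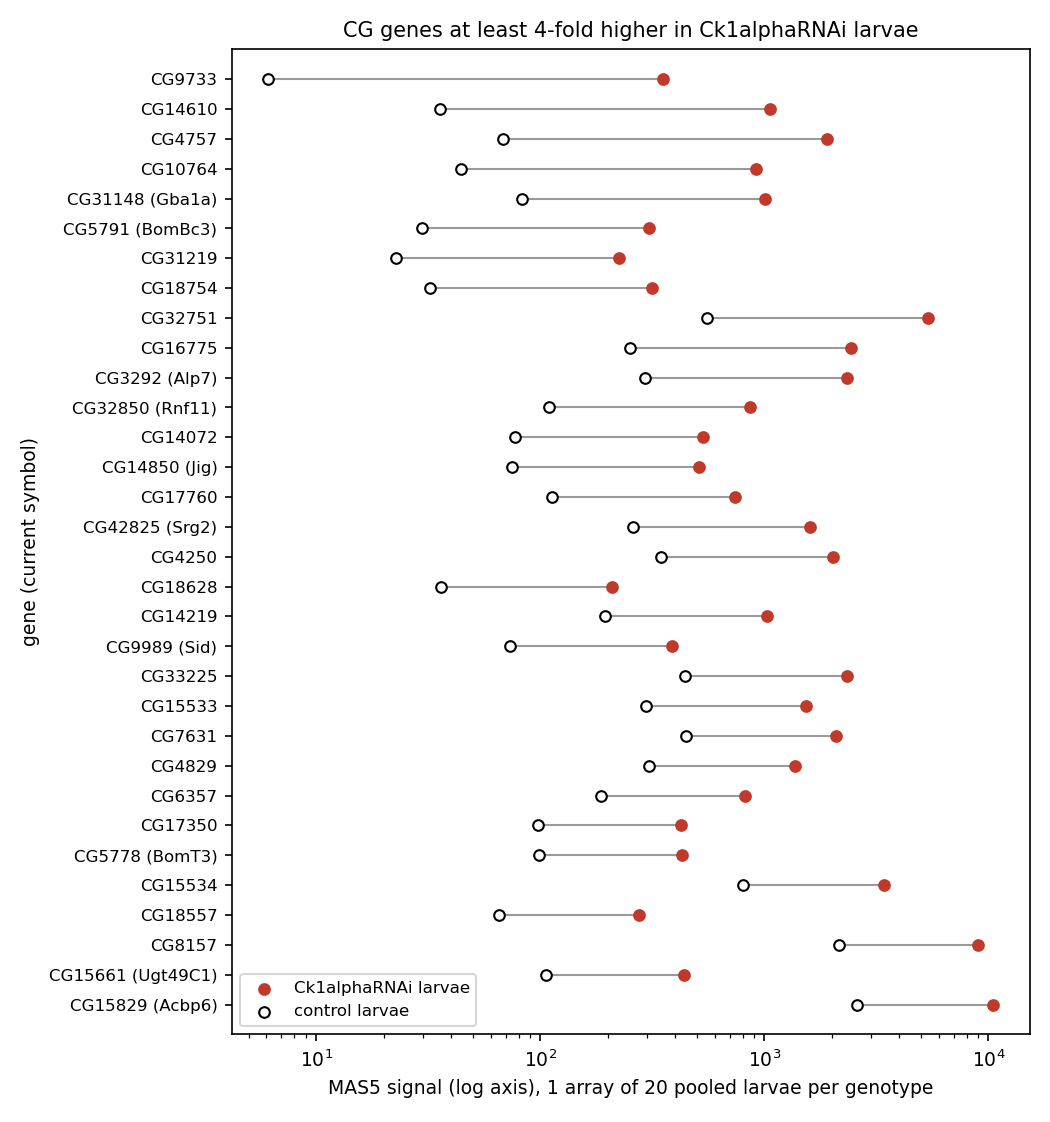
MAS5 signal (horizontal log axis) of each of the 32 CG genes at least 4-fold higher, 1 row per gene in order of quotient, in Ck1alphaRNAi larvae (filled points) and control larvae (open points), with 1 array of 20 pooled larvae per genotype. Signals of Ck1alphaRNAi larvae run from 208 for CG18628 to 10535 for CG15829 (Acbp6), and the control signals at the top left, such as 6.11 for CG9733, lie below the tag controls.

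Among the 22 unannotated lower genes, CG34136 differed most among those above the tag controls on both arrays, with 79.2 in Ck1alphaRNAi larvae and 2187 in control larvae, 27.6-fold lower. CG7320 had 36.5 in Ck1alphaRNAi larvae against 544 in controls, at least 10.2-fold lower, and CG12715 had 67.2 in Ck1alphaRNAi and 805 in control larvae (12-fold lower). A bright set followed, all above 2000 in control larvae. CG43085 had 670 in Ck1alphaRNAi larvae and 6306 in control larvae (9.41-fold lower), CG13962 had 207 in Ck1alphaRNAi larvae against 2053 in controls (9.91-fold), and CG2444 had 762 in Ck1alphaRNAi and 4645 in control larvae (6.10-fold). CG13641 (Srg1) had 627 in Ck1alphaRNAi larvae against 3136 in controls (5-fold lower), the opposite direction to Srg2. CG33307 had 707 in Ck1alphaRNAi and 3187 in control larvae (4.51-fold lower) and CG10918 559 in Ck1alphaRNAi larvae against 2424 in controls (4.34-fold lower). Of the middle range, CG9616 had 162 in Ck1alphaRNAi and 1218 in control larvae (7.51-fold lower), CG13607 had 138 in Ck1alphaRNAi larvae against 1012 in controls (7.35-fold) and CG13912 had 367 in Ck1alphaRNAi and 1791 in control larvae (4.89-fold). The remaining ones, all under 100 in Ck1alphaRNAi larvae apart from CG5866 at 119 in Ck1alphaRNAi larvae against 573 in controls (4.83-fold), CG31698 and CG9837, included CG6503 at 86.0 in Ck1alphaRNAi and 509 in control larvae (5.92-fold) and CG9861 at 55.6 in Ck1alphaRNAi larvae against 295 in controls (5.30-fold).

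**Figure D5:**
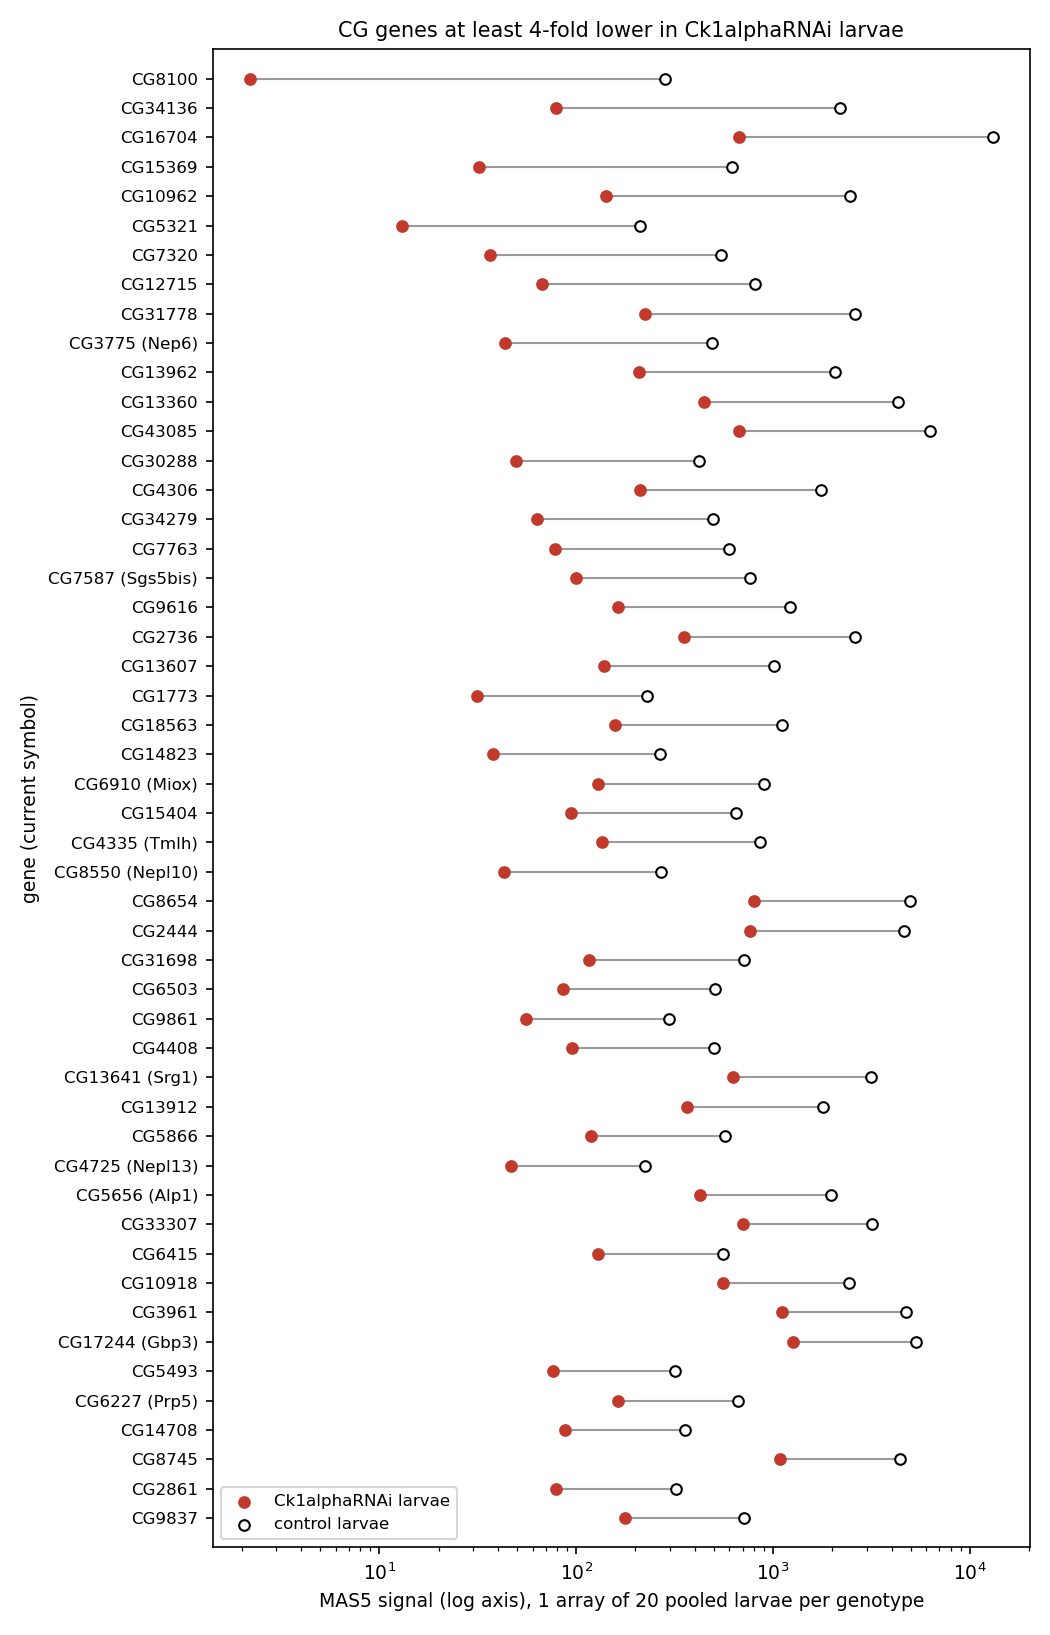
MAS5 signal (horizontal log axis) of each of the 50 CG genes at least 4-fold lower, 1 row per gene with the lowest quotient at the top, in Ck1alphaRNAi larvae (filled points) and control larvae (open points), with 1 array of 20 pooled larvae per genotype. CG16704 has the highest control signal, 13047, and the Ck1alphaRNAi signals of these genes run from 2.20 for CG8100 to 1261 for CG17244 (Gbp3).

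The 4-fold limit fell within a continuous run of values. Just inside it on the higher side were Acbp6 (4.04-fold), Ugt49C1 (4.13-fold), CG8157 (4.17-fold) and CG18557 (4.19-fold), and just outside it Nepl9 (3.97-fold), CG43120 at 458 in Ck1alphaRNAi larvae and 129 in control larvae (3.54-fold), CG7381 at 1693 in Ck1alphaRNAi and 479 in control larvae (3.53-fold) and CG5550 at 4793 in Ck1alphaRNAi larvae against 1372 in controls (3.49-fold). On the lower side CG9837 at 177 in Ck1alphaRNAi and 711 in control larvae (4.03-fold), CG2861 at 79.2 in Ck1alphaRNAi larvae against 320 in controls (4.04-fold), CG8745 (4.06-fold) and CG14708 at 87.5 in Ck1alphaRNAi and 356 in control larvae (4.07-fold) lay just inside. Just outside were CG12428 at 585 in Ck1alphaRNAi larvae against 2333 in controls (3.99-fold), CG9021 at 97.6 in Ck1alphaRNAi and 388 in control larvae (3.98-fold), CG34434 at 148 in Ck1alphaRNAi larvae against 571 in controls (3.86-fold) and CG33459 at 164 in Ck1alphaRNAi and 611 in control larvae (3.72-fold). Between 4 and 5-fold lay 10 of the higher and 16 of the lower genes, and at least 10-fold by the plain quotient 6 and 10.

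For 79 of the 82 genes only 1 probe set carried the symbol alone. Among the others, the second probe set of CG14823 had 19.6 in Ck1alphaRNAi larvae, below the tag controls, and 139 in control larvae, at least 2.61-fold lower, and a further one, at 7.47 in Ck1alphaRNAi larvae against 7.50 in controls, lay below the tag controls on both arrays. The second probe set of CG2861 gave 46.6 in Ck1alphaRNAi larvae, again below the tag controls, and 69.2 in control larvae. CG32850, now Rnf11, a ubiquitin ligase, was counted as higher by a probe set at 865 in Ck1alphaRNAi larvae and 110 in control larvae (7.90-fold), but that probe set was designed on a transposon. The probe set designed on the CG32850 transcript gave 150 in Ck1alphaRNAi larvae against 98.5 in controls, a quotient of 1.52, short of the limit. Probe sets shared with another gene gave 926 in Ck1alphaRNAi and 221 in control larvae for CG9989 with CG33346 and 293 in Ck1alphaRNAi larvae against 4462 in controls for CG10962 with CR43836, both in the same direction as the gene's own probe set. The one that CG1773 shares with CG30002, at 16 in Ck1alphaRNAi and 53.7 in control larvae, was too dim to give a direction. In 7 of the 82 genes the sequence behind the probe set was named for something other than the gene's own transcript. These were CG32850, CG42825, CG33225, CG33307, CG34279, CG43085 and CG34136.

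Position in the genome was not used to choose the genes. In the order of protein-coding genes of the reference, 3 pairs of them were direct neighbours, and in each pair both genes went the same way. These were BomT3 with BomBc3 and CG15533 with CG15534 on chromosome arm 3R, both pairs higher, and CG31698 with CG15404 on 2L, both lower. CG31698 had 116 in Ck1alphaRNAi larvae and 710 in control larvae (6.10-fold lower) and CG15404 had 94.0 in Ck1alphaRNAi larvae against 651 in controls (6.92-fold lower). Hydr2, the measured gene on one side of this pair, was at 2780 in Ck1alphaRNAi and 4147 in control larvae, and CG34393, on the other side, was too dim to tell. CG8100 adjoins Fbp1, a fat body protein gene, at 88.1 in Ck1alphaRNAi and 2290 in control larvae. Counting any neighbour, 4 of the 32 higher genes (12.5%) had an adjacent gene that was at least 4-fold higher, against 1.07% of 6825 placed genes with a signal of at least 200, and 3 of the 50 lower genes (6.00%) had one at least 4-fold lower, against 1.16%. These shares were not tested, and paired members count for each other. By chromosome, 3R held 25 of the 82 genes (30.5%, against 25.8% of CG genes with that signal), 2R 16, 3L 14, 2L 13, X 13 and chromosome 4 only CG32850.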

How the data were processed

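Whole-larva RNA was measured on 1 Affymetrix Drosophila 2 array for Ck1alphaRNAi and 1 for control larvae, so precision is limited by the number of arrays and no test was made. The labels name Trizol for extraction, the methods a kit. The authors deposited MAS5 (version 5, per the submitters' processing notes) signal intensity values on a linear scale for 18952 probe sets, in 2 tables. Apart from rounding, the tables were identical for 18951 of these probe sets. A fold change column of the authors, Ck1alphaRNAi over control, was not used. No source used here names the array's genome build, so no coordinates are printed.

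Quotients and log2 ratios were computed from the deposited intensity values without pseudocount or rescaling. Genes needed a symbol of their own, which gave 11994 genes, 6251 of them CG genes after those left out. Of the 16 left-out genes 14 were measured alone, 9 of them at least 4-fold higher. All 82 genes matched the reference table (Release 6 plus ISO1 MT), from which current names, gene lengths and gene order were taken. Genes were named if they were among the 12 highest or 12 lowest quotients where neither array fell under a signal of 100, the 4 brightest in a direction, the 4 largest changes of a function list, neighbours within 5 genes, or the 4 nearest the limit. The 25 others, the families and the tag control level were chosen after their values were seen, and the members and lists were chosen with earlier results of these data known. Protein features were not analysed here. The selection was tested on simulated data. That simulation used genes brighter than the minimum signal and changes larger than 4-fold, so it does not cover genes near these limits. Alternatives were other scalings, a pseudocount of 16, other limits, the median over probe sets and the second table. Python 3.11.15, numpy 2.4.6, pandas 2.3.3, statsmodels 0.14.6 and matplotlib 3.10.9 were used.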

Additional observations from a re-analysis of the deposited data

How the results depend on the processing

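With 32 genes higher and 50 lower as deposited, the scalings gave 31 to 32 higher and 46 to 50 lower and moved the median log2 ratio by at most 0.02. A pseudocount of 16 gave 28 and 43. A minimum signal of 100 gave 40 and 67, and one of 400 gave 25 and 40. The limit itself moved the counts most, to 42 higher and 84 lower at 3-fold and to 22 and 34 at 5-fold. The median over probe sets gave 32 and 51, and the values of the other deposited file 32 and 50. No direction turned among the 57 named genes, the only single genes followed through these alternatives. Of the 82 genes, 76 remained under quantile normalization, 77 under loess and 71 with the pseudocount. Of 57 named genes the log2 ratio moved by more than the probe set spread in 12 with the pseudocount. All 12 had a dim signal on 1 array, a range in which that spread was not measured. The log2 ratio also moved in 2 with the median over probe sets, to 1.79 for CG32850 and -1.29 for CG2861, so both then missed 4-fold. Chosen after seeing the data, leaving out the transposon probe set gave 31 higher, and bounds at the tag control level gave 49 lower. No paired analysis was possible because each genotype had 1 array. What depth limits here is the dim side: 37 genes had a signal under 100 on an array.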
